A study of Rattus with 6 samples.

Results

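The transcription factor p53 and 9 genes that it is known to switch on were followed in cultured aortic smooth muscle cells given an siRNA against CDCP1. The 10 genes, Trp53, Cdkn1a, Mdm2, Ccng1, Phlda3, Sesn1, Trp53inp1, Gdf15, Eda2r and Zmat3, were taken by name from the deposited expression table. All 10 were found among its 54012 genes, and all 10 were among the 12080 genes whose mean over the 6 libraries reached 1 FPKM (fragments per kilobase of gene, scaled to library size). The si-CDCP1 group is 3 libraries from cells labelled as CDCP1 knockdown, and the si-NC group is 3 libraries from cells labelled as wild type that carried a control siRNA. Every culture was a primary culture from aorta, grown in serum and treated with angiotensin II (Ang II), a hormone that constricts vessels; no culture without Ang II or without siRNA was analysed here. The labels name rat as the organism and the values are listed for mouse genes on mm10, so mouse names are used below, and a low level need not mean an absent transcript. The labels do not tie replicates to separate animals, so the spread behind each p-value may be technical. Because these are bulk samples, fewer cells with a transcript and less transcript per cell cannot be told apart.

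p53 is a short-lived DNA-binding protein that is stabilised by DNA damage, oncogene activity and other stress. Its control lies mostly in protein turnover, so the amount of its mRNA says little about its activity, which is usually read from its targets. Cdkn1a encodes p21, an inhibitor of cyclin-dependent kinases that halts the cell cycle, and Mdm2 encodes the ubiquitin ligase that degrades p53 and is itself induced by it. In vascular smooth muscle, p53 and p21 are known as brakes on proliferation after injury.

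The libraries held between 16050517 and 19771638 recovered reads, and each of the 10 genes had between 314 and 5651 reads in each library. Cdcp1 itself could not serve as a check of the knockdown: it had 0, 5 and 0 reads in si-CDCP1 and 2, 2 and 1 reads in si-NC, a ratio of read shares of 1.10 with an exact binomial 95% interval from 0.254 to 4.79 (counting error only). Of 10 smooth muscle markers 5 had a mean of at least 1 FPKM; Acta2 averaged 46.8 ± 15.5 FPKM in si-CDCP1 and 37.4 ± 1.95 FPKM in si-NC (SD, n = 3 each), whereas Tagln, Cnn1 and Myh11 stayed under 0.22 FPKM in every library. The contractile class of markers thus went against the label in part. Of the smooth muscle genes, Tpm1 was above the si-NC range in every si-CDCP1 library (72.5 ± 7.57 FPKM in si-CDCP1 and 61.7 ± 1.05 FPKM in si-NC; SD, n = 3 each) and Vcl below it (17.8 ± 1.61 FPKM in si-CDCP1 and 20.3 ± 0.515 FPKM in si-NC). The summed level of the 4 fibroblast markers, mostly Col1a1, lay between 274.5 and 308 FPKM in si-CDCP1 and between 276.6 and 309.9 FPKM in si-NC, while Pdgfra among them was lower in every si-CDCP1 library (8.69 ± 0.984 FPKM in si-CDCP1 and 10.4 ± 0.361 FPKM in si-NC). The 4 macrophage and blood markers summed to 0.727 to 0.891 FPKM in si-CDCP1 and 1.30 to 1.33 FPKM in si-NC, nearly all of it Cd68 (14 to 19 reads per si-CDCP1 library and 25 to 33 per si-NC library), with Adgre1 at 0. The 4 endothelial markers summed to 0.406 to 0.515 FPKM in si-CDCP1 and 0.364 to 0.401 FPKM in si-NC, with Cdh5 at 0, Tek higher and Kdr lower in si-CDCP1; the 3 pericyte markers summed to 0.0282 to 0.0810 FPKM in si-CDCP1 and 0.116 to 0.172 FPKM in si-NC, with Abcc9 at 0. The part of these marker differences in the results below was not tested. The si-CDCP1 replicate 3 library stood apart, with a mean Pearson correlation of 0.981 with the others on the log2 scale against 0.987 to 0.988 for the remaining 5, so results below are also given without it. In si-CDCP1 replicate 1, deviations from each gene's mean followed gene length, with shorter genes higher (Spearman r of -0.312). In the other libraries this r lay between -0.0437 and 0.0899, and 1 alternative removed the length trend. The total that the deposited scaling implies also differed from the reads listed: the listed reads were 99.9%, 99.9% and 104.0% of it in si-CDCP1 and 98.4% in each si-NC library. Differences were therefore also computed with each library scaled to its listed reads.

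Across p53 and its arrest targets, the si-CDCP1 and si-NC cultures had overlapping levels for 9 of the 10 genes. Sesn1 alone had groups apart, lower in si-CDCP1. Of all genes tested, 10.6% were apart lower and 14.4% apart higher. Of the 10 genes 0 passed a BH-adjusted p of 0.05 in limma over all 12080 genes, where 0 genes (0%) passed. At an unadjusted p under 0.05, only Sesn1 was counted, 1 of 10 against 14.3% of all genes tested. For the other 9 genes the estimated differences lay between -0.04 and 0.04 on the log2(FPKM + 1) scale as deposited. The median of the 10 differences was -0.01, beside 0.01 over all genes tested, and the median of their sizes without sign was 0.03, beside 0.09. The 95% interval of the ratio on the FPKM + 1 scale was widest for Phlda3 (0.801 to 1.20) and narrowest for Ccng1 (0.902 to 1.06). A p-value that misses the threshold does not show that the levels were the same.

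**Figure D1:**
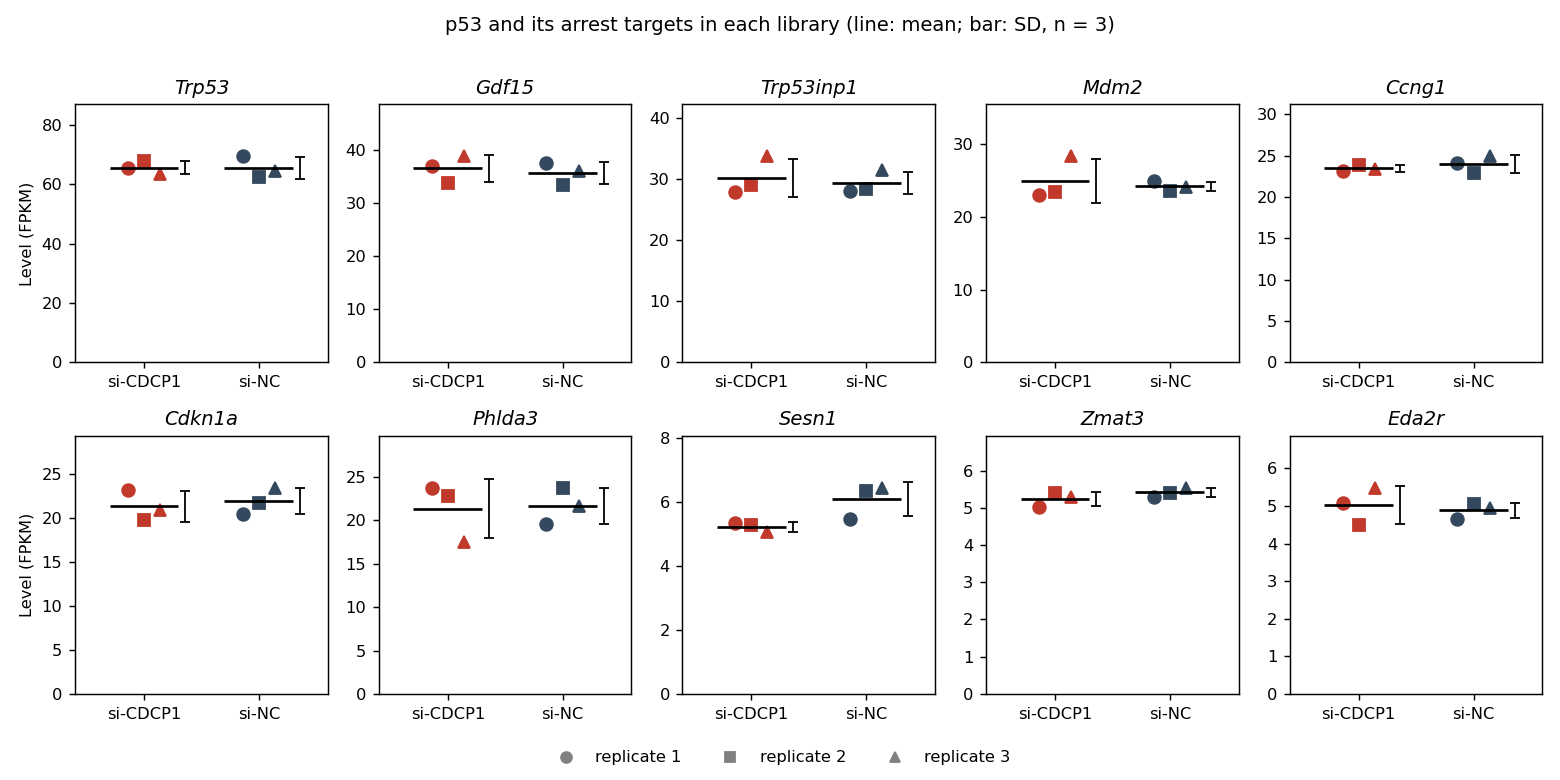
Level (FPKM, axis from 0) of each gene in the 3 si-CDCP1 libraries (left, red) and the 3 si-NC libraries (right, dark), with marker shapes for replicate numbers, a line at the mean and a bar for the SD. Only the Sesn1 groups do not overlap, and the si-CDCP1 replicate 3 library is the highest point for Mdm2, Trp53inp1, Gdf15 and Eda2r and the lowest for Phlda3 and Sesn1.

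Trp53 (ENSMUSG00000059552, mm10 chromosome 11, 69580359 to 69591873, plus strand) had the highest FPKM of the 10. Its level was 65.4, 67.8 and 63.4 FPKM in si-CDCP1 replicates 1, 2 and 3, against 69.5, 62.6 and 64.4 FPKM in si-NC replicates 1, 2 and 3. The groups overlapped fully, and the si-NC libraries held both the highest and the lowest value. The means were 65.5 ± 2.20 FPKM in si-CDCP1 and 65.5 ± 3.60 FPKM in si-NC (SD, n = 3 each), which gave a log2 difference of 0.00 (SE 0.056, limma BH-adjusted p = 0.994). The 95% interval of the ratio, 0.913 to 1.10, is among the narrowest of the 10. The table holds a processed pseudogene, Trp53-ps, at 0 FPKM in every library. Of all genes tested, 94.2% had a lower mean level than Trp53.

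Mdm2 (chromosome 10, 117688875 to 117710758, minus strand), the feedback inhibitor, did not separate the groups. It was at 23.0, 23.5 and 28.4 FPKM in si-CDCP1 and at 24.9, 23.6 and 24.2 FPKM in si-NC. The si-CDCP1 replicate 3 library lay above all others and its companions lay below every si-NC library. The log2 difference was 0.03 (SE 0.083, adjusted p = 0.862 in limma) with all libraries and -0.06 (SE 0.039) without si-CDCP1 replicate 3. The sign for Mdm2 thus turned with a single library, and it also turned under both rescalings of the libraries described below.

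Cdkn1a (chromosome 17, 29090979 to 29100722, plus strand), the p21 gene through which p53 stops the cell cycle, was at 23.2, 19.8 and 20.9 FPKM in si-CDCP1 and at 20.5, 21.8 and 23.5 FPKM in si-NC. The groups overlapped over most of their range. The means were 21.3 ± 1.75 FPKM in si-CDCP1 and 21.9 ± 1.49 FPKM in si-NC (SD, n = 3 each), and the log2 difference was -0.04 (SE 0.076, limma adjusted p = 0.824). The 95% interval of the ratio ran from 0.859 to 1.10 on the FPKM + 1 scale. Ccng1 (chromosome 11, 40748552 to 40755311, minus strand) encodes cyclin G1, which recruits a phosphatase to Mdm2. It was at 23.1, 23.9 and 23.3 FPKM in si-CDCP1 and at 24.1, 22.9 and 24.9 FPKM in si-NC, overlapping groups with a log2 difference of -0.03 (SE 0.051). This was the smallest standard error of the 10 genes.

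Sesn1 was the gene whose groups did not overlap. It encodes sestrin 1, a stress-induced protein that restrains mTORC1 signalling and lowers oxidative stress (chromosome 10, 41809935 to 41908424, plus strand). Its level was 5.35, 5.27 and 5.05 FPKM in si-CDCP1, against 5.46, 6.33 and 6.45 FPKM in si-NC. Every si-CDCP1 library lay below every si-NC library, although si-NC replicate 1 was close to the si-CDCP1 values. Such a separation, lower in si-CDCP1, was seen for 1 of the 10 genes and for 10.6% of all genes tested. The means were 5.22 ± 0.154 FPKM in si-CDCP1 and 6.08 ± 0.538 FPKM in si-NC (SD, n = 3 each); the log2 difference of -0.18 (SE 0.073) missed the threshold in limma (unadjusted p = 0.0398, BH-adjusted p = 0.339). In the same direction, 5.31% of all genes tested had an unadjusted p under 0.05. Sesn1 had 369, 342 and 314 reads in si-CDCP1 and 437, 411 and 459 reads in si-NC. Its difference was negative under all 16 alternative settings, between -0.25 and -0.15, and under them the adjusted p lay between 0.108 and 0.656. The unadjusted p was under 0.05 in 8 of the 16; with a single library left out it was so only without si-NC replicate 1. The only other gene whose span overlaps a member in the table, 9930024M15Rik on the same strand as Sesn1, averaged 0.0455 FPKM.

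Sesn2, the sestrin gene that both p53 and the ATF4 stress response are known to induce, was about as high in si-CDCP1 (55.2, 53.4 and 53.9 FPKM) as in si-NC (52.98, 55.6 and 51.8 FPKM). Its log2 difference was 0.02 (SE 0.047), and whether it differed from that of Sesn1 was not tested.

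Trp53inp1 (chromosome 4, 11156431 to 11174379, plus strand) encodes a stress-induced protein that promotes p53 phosphorylation and also takes part in autophagy. It was at 27.9, 29.1 and 33.8 FPKM in si-CDCP1 and at 28.1, 28.5 and 31.5 FPKM in si-NC. Replicate 3 was the highest library of its group on both sides, and the ranges overlapped (log2 difference 0.04, SE 0.083, and -0.04 without si-CDCP1 replicate 3). Gdf15 (chromosome 8, 70629393 to 70632456, minus strand), a secreted stress hormone of the TGF-beta family that ATF4 and its partner CHOP induce as well as p53, was at 37.0, 33.7 and 38.8 FPKM in si-CDCP1 and at 37.5, 33.3 and 35.99 FPKM in si-NC. The groups overlapped almost entirely, with a log2 difference of 0.03 (SE 0.070).

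Phlda3 (chromosome 1, 135766119 to 135769136, plus strand) encodes a small lipid-binding protein that keeps the kinase Akt from the membrane. It had the widest spread of the 10 genes, at 23.7, 22.9 and 17.5 FPKM in si-CDCP1 and at 19.5, 23.8 and 21.7 FPKM in si-NC. The lowest value was that of si-CDCP1 replicate 3, and the rest of that group lay within the upper part of the si-NC range. The log2 difference was -0.03 (SE 0.12) with all libraries and 0.10 (SE 0.080) without that library, so its direction was not stable.

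Zmat3 and Eda2r were the lowest with Sesn1. Zmat3 (chromosome 3, 32334792 to 32366014, minus strand), an RNA-binding protein that alters splicing, was at 5.03, 5.40 and 5.28 FPKM in si-CDCP1 and at 5.28, 5.41 and 5.55 FPKM in si-NC. Eda2r (chromosome X, 97333840 to 97377216, minus strand), a receptor of the TNF receptor family for the ligand ectodysplasin A2, was at 5.09, 4.49 and 5.49 FPKM in si-CDCP1 and at 4.66, 5.06 and 4.94 FPKM in si-NC. Both pairs of groups overlapped, and the log2 differences were -0.04 (SE 0.058) for Zmat3 and 0.03 (SE 0.079) for Eda2r.

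**Figure D2:**
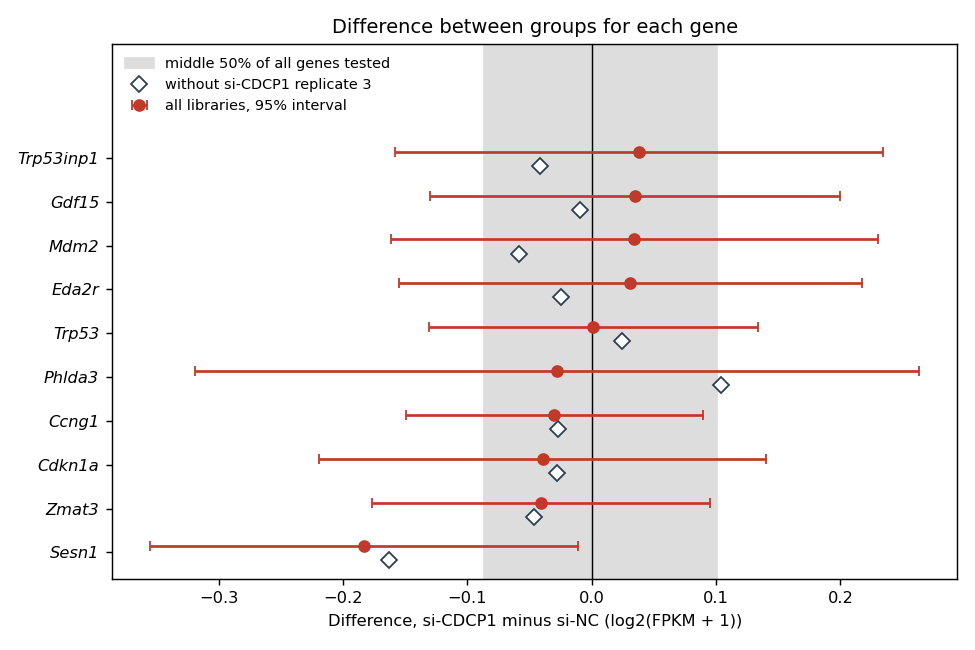
Log2(FPKM + 1) difference, si-CDCP1 minus si-NC, for each gene with its 95% limma interval (filled circles), and the same without si-CDCP1 replicate 3 (open diamonds); the grey band holds the middle 50% of all genes tested. Every interval except that of Sesn1 spans 0, and leaving out the library moves Mdm2, Trp53inp1, Gdf15 and Eda2r below 0 and Phlda3 above 0.

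The order of levels over the 6 libraries was Trp53 (mean 65.5 FPKM), Gdf15 (36.03), Trp53inp1 (29.8), Mdm2 (24.6), Ccng1 (23.7), Cdkn1a (21.6), Phlda3 (21.5), Sesn1 (5.65), Zmat3 (5.32) and Eda2r (4.95 FPKM). Trp53 was above the range of Gdf15, and Phlda3 was above the range of Sesn1. All other neighbours in this order had overlapping ranges. By FPKM the genes thus fell into a high Trp53, a middle group of 6 between 17.5 and 38.8 FPKM, and a low group of 3 between 4.49 and 6.45 FPKM. With rat as the labelled organism and values listed for mouse genes, levels of different genes may not be comparable, which was not tested. The median SD of the 10 genes over the 6 libraries was 0.09 on the log2 scale, beside 0.11 for all genes tested.

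The balance of signs over the list changed with the libraries kept and with the scaling. The si-CDCP1 replicate 3 library held the highest value for 4 of the 10 genes and the lowest for 2, against 34.0% and 30.0% of all genes tested. The si-NC replicate 3 library held the highest value for 4 genes as well (Cdkn1a, Ccng1, Sesn1 and Zmat3), against 11.7% of all genes. As deposited, 5 differences were positive and 5 negative. Without si-CDCP1 replicate 3 the estimates of 5 genes changed sign, which left 2 positive and 8 negative with a median of -0.03, and 0 passed the adjusted threshold. With library weights there were also 2 positive and 8 negative. Signs turned for 3 genes without si-NC replicate 2, for 2 without si-NC replicate 3 and for 2 without si-CDCP1 replicate 2. When the libraries were brought to an equal FPKM sum, all 10 differences were negative (median -0.07, where the median over all genes was -0.04). When each library was scaled to its listed reads, an alternative added after the data had been seen, all 10 were negative too (median -0.05, where that over all genes was -0.03), 4 of them by less than 0.01, and 0 were called. The median of the 10 minus that of all genes was -0.02 as deposited and -0.03 under each rescaling. With equal FPKM sums, genes at an unadjusted p under 0.05 split into 537 higher and 1301 lower, and with listed reads into 743 higher and 977 lower, against 1080 higher and 642 lower as deposited.

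Other fits called more genes, and none of the 10. Limma voom on recovered reads called 5 of 14365 genes (0.0348%) at a BH-adjusted p of 0.05, limma with library weights called 865 of 12080 (7.16%), and voom without si-CDCP1 replicate 3 called 491 of 14365 (3.42%). Of the 10 genes 0 were called in each. The library weights were 0.6, 5.11 and 0.165 for si-CDCP1 replicates 1, 2 and 3, and 1.33, 1.08 and 1.37 for si-NC. In every result with library weights, the si-CDCP1 side therefore rested mostly on replicate 2.

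Among 18 genes that act on p53, 0 passed the adjusted threshold, and Cdkn2a was counted at an unadjusted p under 0.05, higher in si-CDCP1, where 8.94% of all genes tested were. Cdkn2a encodes both the kinase inhibitor p16 and ARF, which binds Mdm2 and so protects p53; the table gives their sum. It was at 88.6, 76.5 and 88.7 FPKM in si-CDCP1, against 69.1, 69.2 and 72.1 FPKM in si-NC. All 3 si-CDCP1 libraries were above all 3 si-NC libraries, a pattern higher in si-CDCP1 that 14.4% of all genes tested had. The log2 difference was 0.26 (SE 0.068, limma BH-adjusted p = 0.267), and 0.23 in limma without si-CDCP1 replicate 3 (adjusted p = 0.183). Voom without that library called it (adjusted p = 0.0429), and over the 16 alternatives the adjusted p ran from 0.0429 to 0.645. With the gene length trend removed, the log2 difference of Cdkn2a was 0.22. Mdm4, which binds p53 and blocks its activity, was at 7.89, 8.55 and 8.91 FPKM in si-CDCP1 and at 9.54, 9.14 and 9.36 FPKM in si-NC. Its groups did not overlap, with a log2 difference of -0.13 (SE 0.060, limma adjusted p = 0.366), and -0.17 in limma without si-CDCP1 replicate 3 (adjusted p = 0.213). Voom without that library called Mdm4 too (adjusted p = 0.0440), and over the alternatives the adjusted p ran from 0.044 to 0.651. Atm, the kinase that signals DNA breaks to p53, averaged 19.7 ± 1.58 FPKM in si-CDCP1 and 19.0 ± 0.500 FPKM in si-NC (SD, n = 3 each). Usp7 and Rchy1 were also higher in every si-CDCP1 library, with log2 differences of 0.18 and 0.24 (limma adjusted p = 0.373 and 0.394). Of the 18 genes 3 were thus apart higher and 1 lower, against 14.4% and 10.6% of all genes tested.

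Of 26 other p53 targets in arrest, repair, death and metabolism, 0 passed the adjusted threshold. Counted at an unadjusted p under 0.05 were 4 genes with higher values in si-CDCP1 (Gadd45a, Rps27l, Aen and Gtse1) and 1 with lower values (Ddb2), against the 8.94% and 5.31% of all genes above. Gadd45a, a growth arrest gene that stress kinases and ATF4 can also induce, was at 105.2, 103.2 and 124.7 FPKM in si-CDCP1, against 89.9, 87.2 and 87.0 FPKM in si-NC. Each si-CDCP1 value was above the si-NC range, the highest being replicate 3. The log2 difference was 0.33 (SE 0.077, limma adjusted p = 0.267) and 0.24 in limma without si-CDCP1 replicate 3 (adjusted p = 0.0709). Voom without that library called it (adjusted p = 0.00390). Limma with library weights, which leaned mostly on si-CDCP1 replicate 2 in its group, did so too (adjusted p = 0.0246). Over the alternatives the adjusted p ran from 0.0039 to 0.645.

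Rps27l, a ribosomal protein paralog induced by p53, was at 55.4, 46.8 and 55.5 FPKM in si-CDCP1 and at 36.7, 39.8 and 44.3 FPKM in si-NC (log2 difference 0.38, SE 0.093, limma adjusted p = 0.267). Voom without si-CDCP1 replicate 3 called it (adjusted p = 0.0386; range over the alternatives 0.0386 to 0.645). Rps27l shares sequence with Rps27 and its value is uncertain where reads could be split between them. Rps27l is also short, at 816 bases, and its log2 difference over the alternatives ran from 0.245 to 0.457. Aen, a p53-induced nuclease, averaged 11.7 ± 0.704 FPKM in si-CDCP1 and 9.89 ± 0.504 FPKM in si-NC (SD, n = 3 each). Ddb2, which recognises ultraviolet damage in DNA, had the opposite sign at 4.41, 4.06 and 3.28 FPKM in si-CDCP1 and 5.55, 5.09 and 4.60 FPKM in si-NC (log2 difference -0.31, SE 0.11, limma adjusted p = 0.311). Btg2, an antiproliferative target, averaged 8.24 ± 1.65 FPKM in si-CDCP1 and 8.14 ± 0.634 FPKM in si-NC (SD, n = 3 each). Known p53 targets therefore lay on both sides of 0: the list had 16 positive and 10 negative differences as deposited, 11 positive with equal FPKM sums and 13 positive with listed reads.

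**Figure D3:**
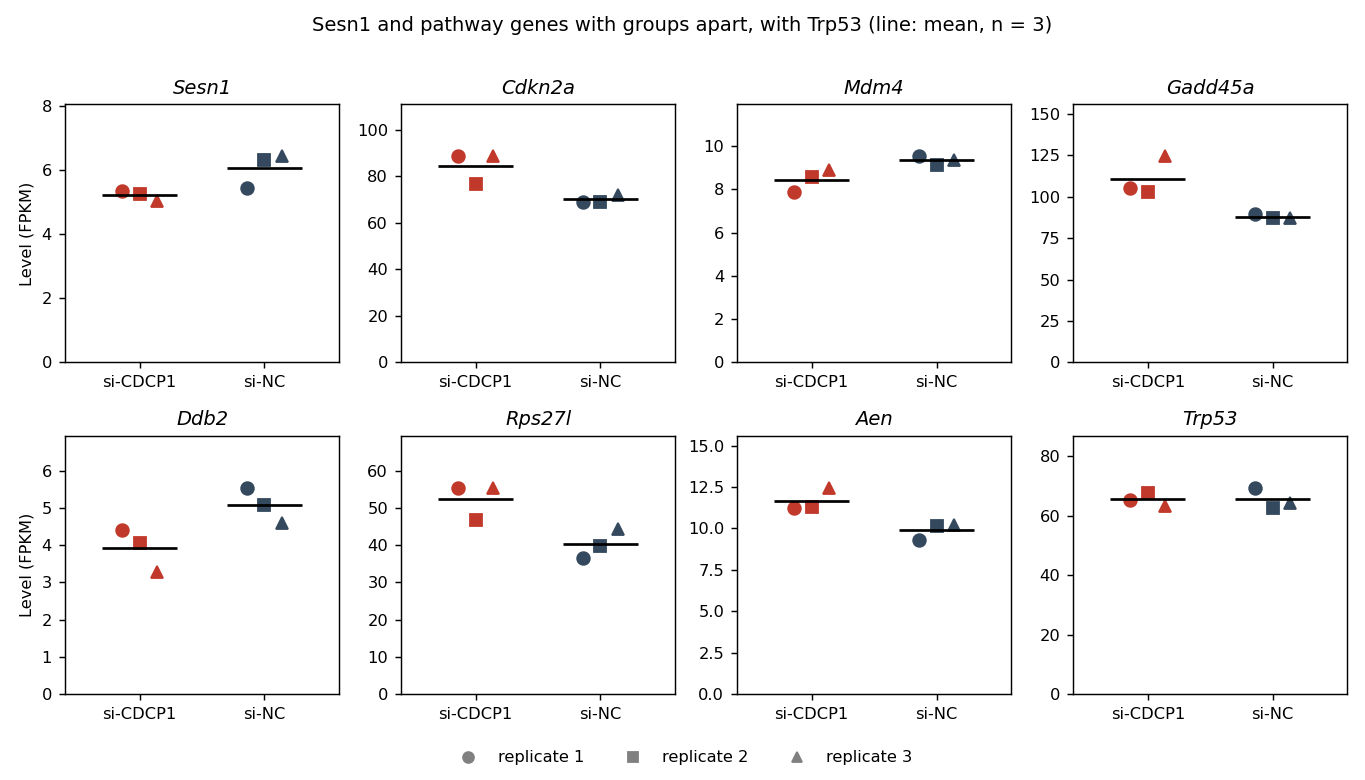
Level (FPKM, axis from 0) in each library of Sesn1, 6 selected genes of the pathway lists whose groups do not overlap, and Trp53. The si-CDCP1 libraries are left and si-NC right, with a line at the mean (n = 3 each). Sesn1, Mdm4 and Ddb2 lie lower and Cdkn2a, Gadd45a, Rps27l and Aen higher in si-CDCP1, while Trp53 overlaps. Without overlap, 3 of 18 regulators lay higher and 1 lower, and 6 of 26 other targets higher and 2 lower. Of all genes tested, 14.4% lay higher and 10.6% lower in this way.

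Downstream of p21, 18 cyclins, kinases, Rb proteins and E2F factors gave 0 genes past the adjusted threshold, 2 higher (Ccne1 and Cdk4) and 1 lower (Ccnd1) at an unadjusted p under 0.05. These counts are near the 8.94% higher and 5.31% lower of all genes tested. Groups without overlap numbered 5 higher and 3 lower of the 18, against 14.4% and 10.6% of all genes tested. Ccne1, cyclin E1, which drives entry into S phase and whose kinase p21 inhibits, was at 11.1, 11.8 and 13.0 FPKM in si-CDCP1, against 9.46, 9.61 and 9.24 FPKM in si-NC. The groups were apart, with a log2 difference of 0.31 (SE 0.066, limma adjusted p = 0.267; 0.0186 with library weights, the lowest of a range of 0.0186 to 0.645). Cdk4, a kinase of the G1 phase, averaged 108.5 ± 3.35 FPKM in si-CDCP1 and 92.7 ± 2.84 FPKM in si-NC (SD, n = 3 each). Its log2 difference of 0.23 (limma adjusted p = 0.267) was called with library weights (adjusted p = 0.0229) and by voom without si-CDCP1 replicate 3 (adjusted p = 0.00653; range over the alternatives 0.00653 to 0.645). Ccnd1, cyclin D1, was at 25.3, 23.6 and 19.9 FPKM in si-CDCP1 and at 27.5, 27.7 and 25.2 FPKM in si-NC, and its log2 difference of -0.22 went to -0.13 without si-CDCP1 replicate 3. Among 5 other kinase inhibitor genes none was counted at either threshold. Cdkn1b, which encodes p27, averaged 34.4 ± 4.38 FPKM in si-CDCP1 and 32.4 ± 0.293 FPKM in si-NC, and Cdkn1c, which encodes p57, averaged 2.18 ± 0.439 FPKM in si-CDCP1 and 1.76 ± 0.498 FPKM in si-NC (SD, n = 3 each). The p53 relatives Trp63 and Trp73 lay below the filter. Trp63 had 29 reads in si-CDCP1 and 65 in si-NC, with an exact two-sided permutation p of 0.1 on FPKM, the smallest that 3 against 3 libraries can give, and Trp73 had 2 reads in si-CDCP1 and 1 in si-NC.

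The stress response that shares Gdf15, Sesn2 and Gadd45a with p53 was measured through 7 genes, of which 3 (Ddit3, Atf3 and Atf4) had higher values in si-CDCP1 at an unadjusted p under 0.05, where 8.94% of all genes tested did, and 0 passed when adjusted. Atf4, the transcription factor of that response, was at 376, 363 and 422 FPKM in si-CDCP1 and at 355, 334 and 349.5 FPKM in si-NC. The log2 difference of 0.16 (SE 0.067) went to 0.10 without si-CDCP1 replicate 3. Ddit3, which encodes CHOP, was at 114.6, 107.2 and 122.9 FPKM in si-CDCP1 and at 93.3, 93.1 and 96.3 FPKM in si-NC, with a log2 difference of 0.28 (SE 0.059, limma adjusted p = 0.267). It was called with library weights (adjusted p = 0.0301) and by voom without si-CDCP1 replicate 3 (adjusted p = 0.00677; range over the alternatives 0.00677 to 0.645). Atf3, a stress-induced transcription factor, had a log2 difference of 0.49 (SE 0.20, limma adjusted p = 0.344). It went to 0.23 in limma without si-CDCP1 replicate 3, a fit that called 0 genes. Voom without that library called Atf3 (adjusted p = 0.0132), and over the alternatives the adjusted p ran from 0.0132 to 0.651. The differences of these 3 genes stood beside one of 0.03 for Gdf15, and the contrast between them was not tested. Groups without overlap numbered 4 higher and 0 lower of the 7, against 14.4% and 10.6% of all genes tested. All 7 genes had positive differences as deposited, where 6314 of the 12080 genes tested did. With equal FPKM sums, and with listed reads, 6 of the 7 were positive.

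**Figure D4:**
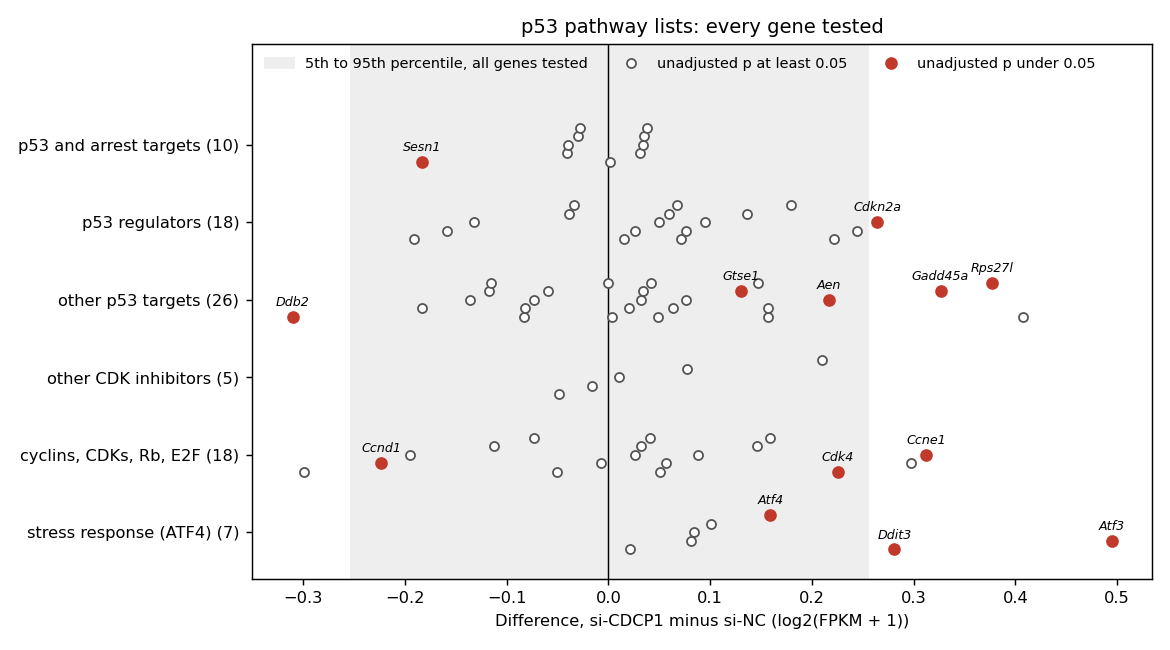
Log2(FPKM + 1) difference, si-CDCP1 minus si-NC, for every tested gene of each list, with the number of genes in brackets; filled points have an unadjusted limma p under 0.05 and the grey band spans the 5th to the 95th percentile of all genes tested. As deposited, p53 and its arrest targets reach from -0.18 (Sesn1) to 0.04, and the 26 other p53 targets from -0.31 to 0.41. The upper end is Plk2, at 0.15 without si-CDCP1 replicate 3. Whether the lists differ was not tested.

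The protein-coding genes whose levels followed Trp53 most closely over the 6 libraries were Bbip1, Phkg2 and Zrsr1, with Pearson r of 0.986, 0.979 and 0.974 on the log2 scale. For Cdkn1a they were Babam1, Tmem176b and Meis3, with r of 0.986, 0.978 and 0.977. Of 10489 genes compared, 25 had an r above 0.9 with Trp53 and 39 with Cdkn1a. How many would pass that r by chance with 6 libraries was not computed. None of the other members was among the genes named here for Trp53 or Cdkn1a. The values are descriptions, since the 6 points share 2 groups and the changes they follow are small.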

How the data were processed

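The authors deposited 1 table of FPKM for 6 libraries, with gene lengths and mouse Ensembl identifiers per the file headers, and mm10 is the build in the submitters' processing notes. For aligner, counter and strand: not given in the sources used here. FPKM times gene length gave whole multiples of 1 step in each library (100% of values within 0.01 of a whole read), from which reads and library totals were recovered; the reads summed to 98.4% to 104.0% of those totals, so scaling to the listed reads was added as an alternative after the data were seen. No replicate pair was a duplicate (chi-square per degree of freedom at least 2.86).

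Groups and replicates were taken from the sample titles. Log2(FPKM + 1) of 12080 genes (mean over all libraries 1 FPKM or more) was compared with limma 3.58.1 (R 4.3.3; intensity trend, two-sided, Benjamini-Hochberg over all genes, threshold 0.05); differences are si-CDCP1 minus si-NC and understate changes of low genes. On simulated data for this comparison (12080 genes), 58% of genes changed 1.5-fold and 83% of genes changed 2-fold were called, with 7 unchanged genes. The simulation changed 100 genes at each fold and set no library apart. These shares therefore need not hold for the real libraries, where 0 genes were called. Alternatives covered the pseudocount, filter, gene type, scaling, gene length trend, library weights, replicate block, voom (at least 10 reads in 3 libraries) and each library left out. Named were all members, fixed regulators and stress genes, and up to 4 genes per list by smallest p under 0.05 (otherwise 2). Gtse1, Usp7, Rchy1 and the genes of the closing observations were named after their values were seen. Members and lists were chosen with earlier results of these data known. No sequence is printed because the reference used here held none. Figures were drawn with matplotlib 3.10.9.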

Additional observations from a re-analysis of the deposited data

How the results depend on the processing

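Of the 10 genes 0 were called under each of the 16 alternatives. The number at an unadjusted p under 0.05 was 0 with the replicate block, with voom on all libraries and with voom without si-CDCP1 replicate 3, and lay between 0 and 1 when libraries were left out. The median difference of the 10 was -0.066 with equal FPKM sums and -0.053 with each library scaled to its listed reads (added after the data were seen). Over all genes, calls numbered 7 without a filter on low values, 2 among protein-coding genes, 1 with equal FPKM sums, 1 with listed reads, 3 with the gene length trend removed, 865 with library weights, 1 with the replicate block, 5 with voom, 491 with voom without si-CDCP1 replicate 3, and 0 to 1 with libraries left out. Genes at an unadjusted p under 0.05 numbered 3511 with library weights and 915 to 2135 with libraries left out, against 1722. The causes were not tested. Same-numbered libraries did not deviate together (r of -0.02, 0.0265 and 0.0223 for numbers 1, 2 and 3), so the labels' numbers were not used as pairs, and not every library correlated best with its own number.

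No sign reversal below concerns a called gene. With equal FPKM sums the differences were -0.053 for Trp53, -0.018 for Mdm2, -0.014 for Trp53inp1, -0.018 for Gdf15, -0.015 for Eda2r, -0.0019 for Atm, -0.033 for Sesn2 and -0.045 for Btg2. With listed reads they were -0.039 for Trp53, -0.0049 for Mdm2, -0.0011 for Trp53inp1, -0.0048 for Gdf15, -0.0030 for Eda2r, -0.020 for Sesn2 and -0.033 for Btg2. With the length trend removed they were -0.0095 for Trp53 and -0.022 for Btg2. With library weights they were -0.041 for Mdm2, 0.082 for Phlda3, -0.017 for Trp53inp1, -0.061 for Gdf15, -0.075 for Eda2r, -0.13 for Btg2 and -0.011 for Cdkn1b. With voom Btg2 was at -0.0028. With voom without si-CDCP1 replicate 3 they were -0.063 for Mdm2, 0.117 for Phlda3, -0.043 for Trp53inp1, -0.012 for Gdf15, -0.024 for Eda2r, -0.0092 for Atm, -0.155 for Btg2 and -0.024 for Cdkn1b. With libraries left out in turn the ranges were -0.031 to 0.044 for Trp53, -0.100 to 0.010 for Cdkn1a, -0.058 to 0.088 for Mdm2, -0.106 to 0.104 for Phlda3, -0.042 to 0.093 for Trp53inp1, -0.011 to 0.089 for Gdf15, -0.025 to 0.096 for Eda2r, -0.0094 to 0.097 for Atm, -0.0021 to 0.048 for Sesn2, -0.139 to 0.076 for Btg2 and -0.023 to 0.130 for Cdkn1b.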

Other observations

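Trp53cor1 (lincRNA-p21), a long noncoding RNA that p53 induces in mouse cells, lies on the opposite strand of mm10 chromosome 17, its nearer end 12018 bases from the start of Cdkn1a. It was at 2.44, 2.14 and 2.02 FPKM in si-CDCP1 and at 3.18, 2.74 and 2.01 FPKM in si-NC, on 321 reads in si-CDCP1 and 427 in si-NC. The groups overlapped through si-NC replicate 3, and the log2 difference was -0.18 (SE 0.13, limma BH-adjusted p = 0.542). Plk2, a polo-like kinase that p53 induces, was at 32.0, 30.7 and 53.7 FPKM in si-CDCP1 and at 28.1, 28.5 and 27.6 FPKM in si-NC. Its groups were apart, yet the log2 difference of 0.41 (SE 0.20, limma adjusted p = 0.383) went to 0.15 without si-CDCP1 replicate 3. Both were picked with their values in view.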
